A study of Ogataea polymorpha NCYC 495 leu1.1 with 8 samples.

Results

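The peroxisomal genes of methanol use in the methylotrophic yeast Hansenula polymorpha (Pichia angusta) described here are AOX (Hp19g106), CAT (Hp27g292), DHAS (Hp27g356) and PMP20 (Hp47g296). They were taken by their probe names, and they are 4 of the 5999 genes of this yeast that the array measured. All 4 products work inside the peroxisome. The gene identifiers could not be placed on the reference genome used here (0 of 5999 matched its gene table), so no positions are given.

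Methanol is burned in the peroxisome of this yeast by alcohol oxidase (AOX), which turns methanol and oxygen into formaldehyde and hydrogen peroxide. Catalase (CAT) breaks the peroxide down to water and oxygen, and the peroxiredoxin Pmp20, studied mainly in Candida boidinii, reduces peroxides with glutathione. Dihydroxyacetone synthase (DHAS) joins formaldehyde to xylulose 5-phosphate and so starts its assimilation into sugars. AOX and DHAS are textbook cases of genes repressed by glucose and switched on by methanol, and their promoters are widely used to drive recombinant proteins.

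Cells of strain NCYC 495 leu1.1 were sampled in pairs from 4 independent cultures. The glucose sample was taken from cells pre-grown on glucose at 37 °C, at an optical density of 2.3, and the methanol sample 2 hours after transfer to fresh mineral medium with 0.5% methanol at an optical density of 0.2. Carbon source, fresh medium and dilution changed together and cannot be told apart, and 2 hours is the one time point. The RNA of each pair was hybridised to 2 Agilent arrays with exchanged dyes, Cy3 and Cy5, which gives 8 arrays on 1 slide, and each gene was printed as 2 spots per array. In bulk RNA such as this, fewer cells with a transcript and less of it per cell cannot be told apart.

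Between 90.6% and 98.3% of the gene spots of a channel were well above background, and the median signal of a channel lay between 1590 and 3200. Culture 1 stood apart from the others. Across genes, its log2 ratios correlated with those of cultures 2, 3 and 4 with r between 0.894 and 0.934, whereas these 3 correlated with each other with r between 0.968 and 0.978 and the dye-swapped arrays of a culture with r between 0.982 and 0.985. The condition itself was visible in all 4 cultures. FMD (Hp16g114), the formate dehydrogenase at the end of methanol dissimilation, rose 227-fold (86.9-fold with glucose in Cy5, 592-fold with methanol in Cy5, and 347-fold as the arithmetic mean of spot ratios). MPP1 (Hp27g360), a regulator of peroxisomal and methanol genes, rose 349-fold (232-fold and 525-fold in the 2 dye orientations, 219-fold after normexp and loess), and the hexokinase gene Hp25g374, the first step of glucose use, fell with log2 ratios between -5.70 in culture 1 and -1.19 in culture 4. Since culture 1 bears on several results, these are also given without it.

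All 4 peroxisomal genes were upregulated on methanol. CAT rose most, 40.3-fold on average, followed by DHAS with 15.0-fold, AOX with 10.8-fold and PMP20 with 6.31-fold. Each gene was higher on methanol in 4 of 4 cultures. CAT rose by a similar amount in every culture, whereas AOX, DHAS and PMP20 rose far more in culture 1 than in culture 2. All 4 genes passed the thresholds (more than 2-fold, limma adjusted p under 0.05, A-value, the mean log2 signal of both dyes, not under 6), where 19.1% of all genes were called upregulated and 21.4% downregulated. Their median log2 ratio was 3.67, beside 0.04 over all 5999 genes. The probes were bright enough for a ratio on every array, since all 16 spots of each gene were well above background in both conditions, and none was saturated or marked as an outlier. The lowest glucose reading of a spot was still 9.82 times its local background for DHAS, and 16.1, 52.1 and 67.7 times for PMP20, CAT and AOX.

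AOX is the enzyme that consumes methanol. Its processed signal on glucose, in arbitrary units, was 9578, 3949, 3041 and 4446 in cultures 1 to 4. After 2 hours on methanol it was 328807, 14380.5, 60681 and 24336. The methanol signal of culture 1 thus was 22.9 times that of culture 2, while the glucose signals spread over 3.15-fold. The conditions did not overlap, as the lowest methanol signal was 1.50 times the highest glucose signal. These signals are not scaled for array brightness, which differed between cultures. With each channel centred on its median over all genes, the lowest log2 level on methanol was 2.86 and the highest on glucose 1.64. Within the cultures the rise was 34.3-fold, 3.64-fold, 20.0-fold and 5.47-fold. As a mean of the log2 ratios this is 3.43 ± 1.53 (SD, n = 4; limma, adjusted p = 0.00188). Without culture 1 the rise was 7.35-fold (adjusted p = 0.00143).

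CAT removes the peroxide that AOX makes. Its signal was 4531, 3090.2, 2928 and 4679 on glucose in cultures 1 to 4, and 218212, 113734, 152800 and 132890 on methanol. Both conditions were tight, with 1.60-fold between the highest and the lowest glucose signal and 1.92-fold between the highest and the lowest methanol signal. The lowest methanol signal was 24.3 times the highest glucose signal, the widest gap among the 4 genes. The rise was 48.2-fold, 36.8-fold, 52.2-fold and 28.4-fold, or a log2 ratio of 5.33 ± 0.40 (SD, n = 4; limma, adjusted p = 5.50e-06).

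DHAS takes up formaldehyde for assimilation. On glucose its signal was 1275, 380.5, 350.4 and 515 in cultures 1 to 4, and on methanol it was 51084, 2928, 5992 and 4929.5. Culture 1 was the highest in both conditions, by 17.4-fold over culture 2 on methanol. The conditions did not overlap, with the lowest methanol signal at 2.30 times the highest glucose signal. After centring each channel, the lowest log2 level on methanol was 0.56 and the highest on glucose -1.27. The rise was 40.1-fold, 7.70-fold, 17.1-fold and 9.57-fold, or a log2 ratio of 3.91 ± 1.06 (SD, n = 4; limma, adjusted p = 2.40e-04). It was 10.8-fold without culture 1.

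PMP20 encodes the peroxisomal peroxiredoxin. On glucose its signal was 1452, 639.7, 643 and 950.3 in cultures 1 to 4, and on methanol it was 46465, 1518, 3648 and 3497. Here the processed signals hardly separated across cultures. The lowest methanol signal, in culture 2, was 1.05 times the highest glucose signal, in culture 1. With each channel centred on its median the gap was wider, with log2 levels of -0.39 and -1.08. Within each culture methanol was higher, by 32.0-fold, 2.37-fold, 5.67-fold and 3.68-fold. The log2 ratio was 2.66 ± 1.64 (SD, n = 4; limma, adjusted p = 0.00769). Without culture 1 the rise was 3.67-fold (adjusted p = 5.30e-04), which is 1.72 times smaller. PMP20 was also the one gene of the 4 that did not pass limma's treat, a test against a 2-fold change itself (adjusted p = 0.0575).

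**Figure D1:**
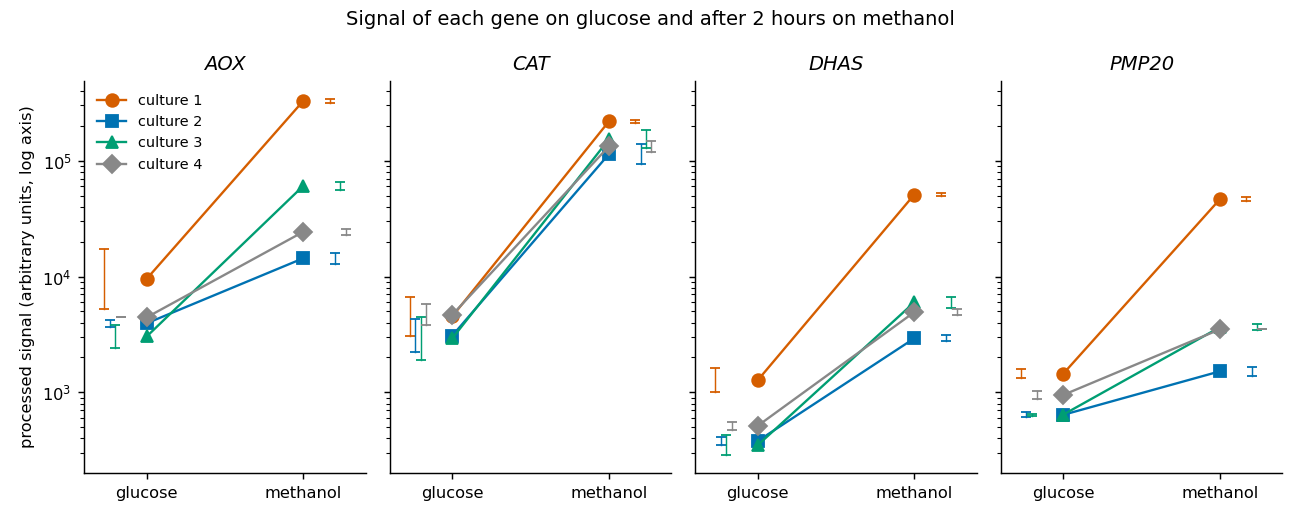
Processed signal (arbitrary units, log axis) of AOX, CAT, DHAS and PMP20 on glucose and after 2 hours on methanol. Each line joins the samples of 1 culture (geometric mean of both arrays), and the small bars beside the points span the 2 arrays of that sample, 1 per dye. The methanol signal of AOX runs from 14380.5 to 328807 and that of CAT from 113734 to 218212.

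The average that is taken over the spots mattered for the genes with unequal cultures. The arithmetic mean of the 16 spot ratios, as in the methods of the study, gave 17.3-fold for AOX and 11.0-fold for PMP20, which is 1.60 and 1.74 times the values above. For CAT and DHAS it gave 42.7-fold and 19.0-fold.

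The spread between cultures was next examined for each condition apart, with every channel centred on its median over all genes. For AOX the SD of the log2 level was 0.45 on glucose and 1.86 on methanol. For DHAS it was 0.58 and 1.61, and for PMP20 0.27 and 1.91. The unequal response of these 3 genes thus lay mostly on the methanol side. For CAT the SD was 0.10 on glucose and 0.43 on methanol. Without culture 1, the SD on methanol was 1.29 for AOX, 0.69 for DHAS, 0.77 for PMP20 and 0.51 for CAT, and the SD on glucose was 0.18 or less for each gene. These SDs are a description of 4 samples per condition, and their difference was not tested.

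AOX, DHAS and PMP20 ranked the 4 cultures in the same order, with the log2 ratio highest in culture 1, then culture 3, then culture 4 and lowest in culture 2. Their methanol levels had this order too, and the order of the ratios was the same on the arrays of either dye orientation. Among all genes called upregulated, 112 of 1145 (9.78%) had this order, and among all genes with a sufficient A-value 241 of 5478 (4.40%). CAT had another order, with culture 3 first and culture 4 last in the mean of both orientations, but culture 1 first on the arrays with methanol in Cy5. The 3 genes were also among the most unequal of the upregulated genes. A call required a low adjusted p, which a large SD works against, so genes with a large SD can be missing from this set. Only 4 of the 1145 had an SD over cultures at least as large as PMP20 (itself counted), 9 at least as large as AOX and 25 at least as large as DHAS, whereas CAT was matched or exceeded by 316, and the median SD was 0.28.

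In culture 1 the log2 ratio of PMP20 was 3.12 above the mean of cultures 2 to 4. Only 1 of 5478 genes with a sufficient A-value had a larger difference in that direction. The difference was 2.22 for AOX and 1.89 for DHAS, exceeded by 14 and 32 genes. For CAT it was 0.34, exceeded by 1392 genes, so that CAT did not share the high response of culture 1. Nor did the upregulated genes as a whole lean that way. Of the 1145, 32.5% had their highest ratio in culture 1 and 35.5% had their lowest there.

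**Figure D2:**
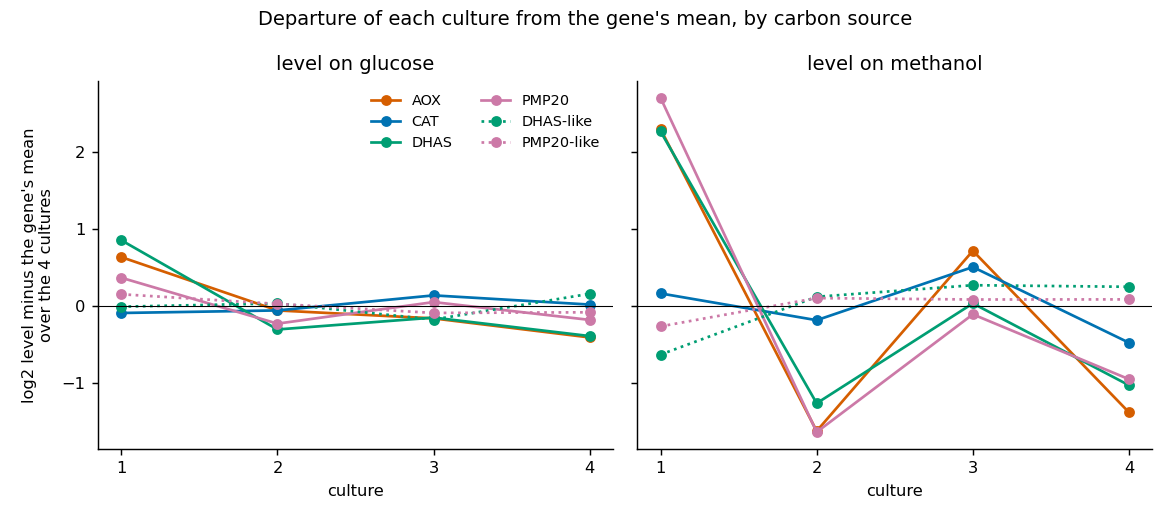
Log2 level (each channel centred on its median) in each culture minus the gene's mean over the 4 cultures, on glucose (left) and on methanol (right), for the 4 genes (solid lines) and for DHAS-like and PMP20-like (dotted lines). On methanol, AOX, DHAS and PMP20 have culture 1 highest, whereas DHAS-like and PMP20-like have it lowest.

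The level on glucose was also higher in culture 1 for AOX, DHAS and PMP20, but by less, and for AOX this depended on the dye. With glucose labelled in Cy5, the AOX level of culture 1 was 1.62 above the mean of the other cultures on the log2 scale, and with glucose in Cy3 it was 0.07 above. The corresponding values were 1.36 and 0.91 for DHAS and 0.67 and 0.30 for PMP20. On methanol both dyes gave nearly the same difference, 3.07 and 3.05 for AOX, 2.95 and 3.09 for DHAS and 3.66 and 3.55 for PMP20 (Cy3 first). The culture 1 excess on methanol therefore appeared with either dye.

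The glucose readings of AOX and CAT differed between the dyes. In culture 1 the AOX signal on glucose was 17386 in Cy5 and 5276 in Cy3, a factor of 3.30, and in cultures 2, 3 and 4 the factor was 1.15, 1.58 and 1.01. For CAT this factor was between 1.53 and 2.33 in all 4 cultures. It was between 1.16 and 1.59 for DHAS and between 0.842 and 1.18 for PMP20. The average fold change with methanol in Cy5 against that with glucose in Cy5 was 12.6 against 9.29 for AOX, 49.7 against 32.6 for CAT, 16.5 against 13.6 for DHAS and 6.11 against 6.52 for PMP20. All 4 genes were called with either orientation alone. Duplicate spots on the same array differed by at most 0.36 in log2 ratio for CAT and by less for the other genes.

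The rows of the slide held cultures 1 and 2, and cultures 3 and 4. Within them the mean log2 ratio was 3.48 and 3.39 for AOX, 5.40 and 5.27 for CAT, 4.13 and 3.68 for DHAS and 3.12 and 2.19 for PMP20. With the row as a block all 4 genes were called, with the largest adjusted p, 0.0139 (limma), for PMP20.

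The responses were then compared between genes, as differences of the log2 ratio within each culture. CAT rose more than AOX, DHAS and PMP20 in 4 of 4 cultures, with mean differences of 1.90 ± 1.23, 1.43 ± 0.84 and 2.67 ± 1.45 (SD, n = 4). DHAS rose more than PMP20 in 4 of 4 cultures, by 1.25 ± 0.63 (SD, n = 4), and AOX more than PMP20 in 4 of 4 cultures, by 0.78 ± 0.73 (SD, n = 4). Each of these 5 differences had p = 0.125 in the two-sided exact sign-flip test, the smallest that 4 cultures allow, and 0.200 after Benjamini-Hochberg adjustment over the 8 pairs compared. AOX and DHAS, the enzymes that make and use formaldehyde, did not keep the same order in all cultures. AOX was the lower in 3 of 4 cultures, with a mean difference of 0.47 ± 0.58 over all 4 (SD, n = 4, exact p = 0.250, adjusted 0.286). In culture 1 the 4 genes were close together, between 32.0-fold and 48.2-fold. In culture 2 they were far apart, between 2.37-fold and 36.8-fold.

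DHAS and PMP20 each have a similar gene on the array, annotated as dihydroxyacetone synthase-like (Hp31g627) and PMP20-like (Hp47g996). How far the probes of such pairs cross-hybridise was not tested. DHAS-like rose 13.9-fold, with log2 ratios of 3.18, 3.88, 4.25 and 3.88 in cultures 1 to 4 (mean 3.80 ± 0.45, SD, n = 4; limma, adjusted p = 1.68e-05). Its glucose signals were low, between 40.8 and 89.3, its rise was 8.15-fold after normexp and loess, and its A-value of 7.91 lay under the stricter limit of 8. PMP20-like rose 2.43-fold, with 0.87, 1.35, 1.46 and 1.44 (mean 1.28 ± 0.28, SD, n = 4; limma, adjusted p = 2.83e-04), and was not called by treat (adjusted p = 0.126). Both were lowest in culture 1, where DHAS and PMP20 were highest.

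DHAS exceeded DHAS-like by a log2 ratio of 2.15 in culture 1 but was lower by 0.93, 0.15 and 0.62 in cultures 2 to 4, so that the mean difference was 0.11 ± 1.40 (SD, n = 4, exact p = 1.00). It was -0.57 without culture 1. PMP20 exceeded PMP20-like by 4.14 in culture 1, fell below it by 0.10 in culture 2 and exceeded it by 1.05 and 0.44 in cultures 3 and 4, with a mean difference of 1.38 ± 1.90 (SD, n = 4, exact p = 0.250, adjusted 0.286). One more similar gene, Hp27g557, annotated as dihydroxyacetone kinase-like, was called upregulated and was likewise lowest in culture 1, with a log2 ratio of 1.69 against 2.95 to 3.28 in the others. Its size is uncertain, since glucose was well above background in 11 of its 16 spots. The rise was 6.80-fold from the processed signals, 3.66-fold after loess without background subtraction and 3.09-fold after normexp and loess, and the gene was not called where all spots had to be well above background or the A-value (6.28) had to reach 8.

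**Figure D3:**
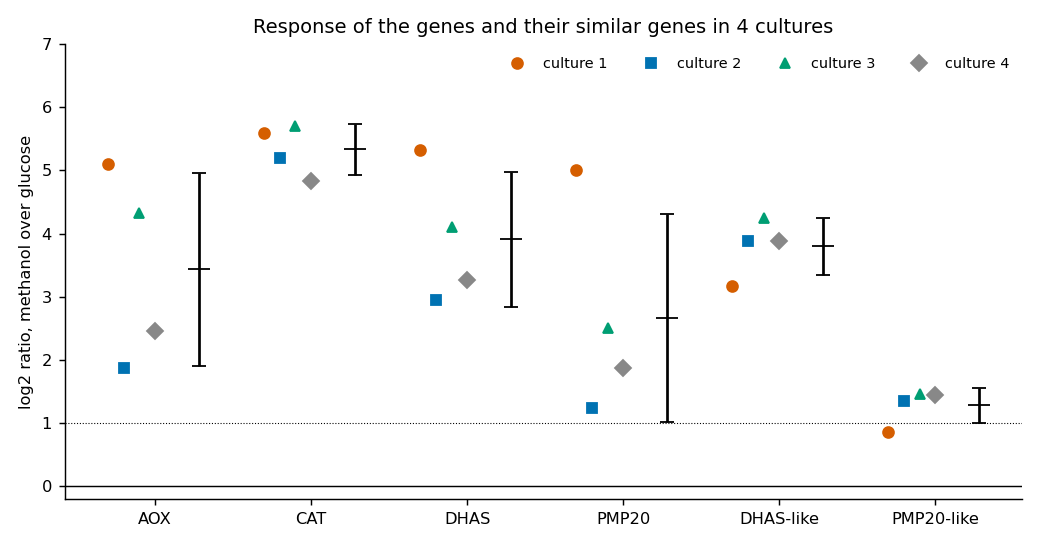
Log2 ratio of methanol over glucose in each culture for AOX, CAT, DHAS, PMP20 and the similar genes DHAS-like and PMP20-like. Symbols are single cultures, the horizontal mark with bars is the mean ± SD of 4 cultures, and the dotted line marks a 2-fold rise. AOX spans 1.86 to 5.10 and CAT 4.83 to 5.71.

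The genes with the most similar pattern were sought over the 8 log2 levels, 4 cultures in 2 conditions, each gene centred on its mean, by the root mean square (RMS) difference among 5478 genes. The nearest to AOX was DHAS, with an RMS difference of 0.40, followed by Hp47g243, whose best match is a P-type ATPase, with 0.48, and Hp24g409, which has no match in the annotation used, with 0.48. The nearest to DHAS were Hp47g243 (0.38), AOX (0.40) and Hp24g198, matched to a serine-threonine kinase (0.49). The nearest to PMP20 were Hp31g17, matched to a transaldolase (0.33), Hp24g409 (0.47) and AOX (0.55). In this measure AOX was among the 3 nearest genes of both DHAS and PMP20.

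AOX, DHAS and PMP20 differed from each other by 0.40 to 0.69, whereas CAT differed from them by 1.19 (DHAS), 1.39 (AOX) and 1.72 (PMP20). The nearest to CAT were Hp8g313, annotated as aldehyde dehydrogenase (0.20), Hp29g260, matched to an L-iditol dehydrogenase (0.25), and Hp1g67, matched to an L-arabinitol dehydrogenase (0.26). Hp31g17 had log2 ratios of 5.35, 0.81, 2.42 and 1.57 in cultures 1 to 4, the same order as PMP20, and was the more unequal of the pair with an SD of 1.99. Hp8g313 had 5.48, 5.84, 5.64 and 5.20, more even than CAT, with an SD of 0.27 against 0.40. These likenesses are descriptions over 8 samples from 4 cultures.

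Other genes of the pathway and the organelle were taken from lists built on the genes the study names and, for the similar genes, the cytochrome c peroxidase-like genes, malate synthase, amine oxidase and Lon protease, on its annotation. The lists were made with results of these samples known, so their direction is not independent evidence. The 4 enzymes of methanol use outside the peroxisome were all called upregulated. The list holds FLD1 (formaldehyde dehydrogenase, 7.68-fold), FGH (S-formylglutathione hydrolase, 2.10-fold), FMD and DAK (dihydroxyacetone kinase, which phosphorylates the product of DHAS, 2.88-fold), with a median log2 ratio of 2.23. None of them was as unequal as AOX, DHAS or PMP20, with SDs between 0.20 and 0.48. FLD1 and FGH did share with these 3 the highest log2 ratio in culture 1 (3.64 and 1.70), in either dye orientation. FMD had it there only in the mean of both orientations (8.05). With glucose in Cy5 its ratio was highest in culture 2 (6.80 against 6.77 in culture 1). With methanol in Cy5 it was highest in culture 3 (9.56 against 9.33 in culture 1). DAK was highest in culture 3 (1.79). FGH was not called without culture 1 (log2 ratio 0.86) or when methanol was in Cy5 (0.93), nor by treat.

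Peroxide and thiol defence outside the peroxisome was represented by 6 genes, which are not the whole of that group. These 6 were called upregulated, with a median log2 ratio of 2.52. The study also names GTO2 and GRX5 as increased. It reports the remaining genes of the glutathione and thioredoxin systems as not differentially expressed. None of these was listed here, so the 6 do not stand for the whole group. TSA1 (Hp5g492), a thioredoxin peroxidase, rose 40.0-fold, and TRR1 (Hp26g249), the thioredoxin reductase, rose 9.53-fold. GPX3 (Hp19g287), a thiol peroxidase, rose 7.53-fold and SOD1 (Hp37g167), the superoxide dismutase, 4.16-fold. The cytochrome c peroxidase-like genes Hp6g291 and Hp47g69 rose 4.40-fold and 2.70-fold. TSA1, TRR1 and GPX3 had their lowest ratio in culture 1, where PMP20 had its highest. SOD1 had its highest log2 ratio there as well (2.26), but with glucose in Cy5 culture 2 was highest (2.00 against 1.91 in culture 1). Hp6g291 and Hp47g69 had their lowest in culture 2 (1.93 and 1.25), as PMP20 did. With glucose in Cy5, however, Hp47g69 was lowest in culture 1 (0.88 against 1.02 in culture 2).

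The 7 other peroxisomal enzymes were all called upregulated as well, with a median log2 ratio of 3.56. Acyl-CoA oxidase (Hp33g132), the step of fatty acid oxidation that makes hydrogen peroxide, rose 11.8-fold with log2 ratios of 4.57, 2.06, 3.65 and 3.94 in cultures 1 to 4. It shared with AOX the highest value in culture 1 and the lowest in culture 2, and its SD of 1.07 was close to that of DHAS (1.06). Of the 7 enzymes, 3 had their highest ratio in culture 1. Carnitine acetyltransferase (Hp47g959) rose 34.7-fold and was even across cultures (SD 0.21), but not between the dyes, with 19.3-fold for glucose in Cy5 and 62.2-fold for methanol in Cy5. The peroxisomal Lon protease (Hp27g385) was at the limit, 2.02-fold, and was not called without culture 1 (log2 ratio 0.69) or without culture 3 (0.98, adjusted p = 0.0604, limma). It also lost its call with glucose in Cy5 (0.92), under normexp and loess (0.96), loess without background subtraction (0.97) or median centring (0.97), without the replicate block (adjusted p = 0.0743, limma) and by treat.

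Matrix enzymes such as these 4 are carried into the peroxisome by import receptors and a docking complex. Of 7 PEX genes of this machinery, 4 were called upregulated and 3 were not. PEX5, the receptor for proteins with the C-terminal targeting signal, rose 3.22-fold, and the docking genes PEX13, PEX14 and PEX17 rose 2.89-fold, 3.39-fold and 2.09-fold, the last not called without culture 1 (log2 ratio 0.99) or by treat (adjusted p = 0.704). PEX7, the receptor for the N-terminal signal, had a log2 ratio of 0.79 ± 0.15 and PEX8 one of 0.72 ± 0.29 (SD, n = 4), both under the 2-fold limit, which PEX7 just passed with glucose in Cy5 (1.00). PEX20 had a log2 ratio of 0.00 ± 0.33 (SD, n = 4), whose sign changed between settings. The median log2 ratio of the 7 genes was 1.07. Of these 7, 5 had their highest ratio in culture 1, among them PEX8. Over all genes called upregulated, a set without PEX7, PEX8 and PEX20, this share was 32.5%.

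Of 3 regulators, MPP1 and the ADR1 homolog Hp5g47 (20.7-fold) were called upregulated. In baker's yeast Adr1p activates genes of peroxisomal metabolism. The PIP2 homolog Hp24g760 had a log2 ratio of 0.97 ± 0.15 (SD, n = 4), just under the limit, and was called without culture 1 (1.00), with glucose in Cy5 (1.03) and without the replicate block (1.01). The log2 ratios of MPP1 did not follow the culture order of AOX, with 8.29, 8.09, 9.02 and 8.39 in cultures 1 to 4. Its methanol level did, with centred log2 levels of 5.14, 2.48, 4.29 and 3.23. Its glucose level was highest in culture 1 too (-3.19, against -5.66, -4.77 and -5.21 in cultures 2 to 4). The ADR1 homolog had log2 ratios of 3.68, 3.72, 4.70 and 5.39, lowest in culture 1 by a small margin. With methanol in Cy5 it was lowest in culture 2 (3.84 against 3.86 in culture 1).

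Downstream of DHAS, aldolase and fructose 1,6-bisphosphatase lead the assimilated carbon towards hexose phosphates. Fructose 1,6-bisphosphatase (Hp46g88) rose 4.37-fold. Aldolase (Hp47g1019) was not called, with log2 ratios of -0.83, 0.67, 1.49 and 1.52 in cultures 1 to 4 (mean 0.71 with a moderated SE of 0.41, n = 4; limma, adjusted p = 0.156). In culture 1, where DHAS was highest, aldolase was thus lower on methanol than on glucose. Without culture 1 it was called, with a log2 ratio of 1.23 (adjusted p = 0.00135). It was also called with methanol in Cy5 (1.21, adjusted p = 0.0367, limma) and by Cyber-T over the 16 spots, the method of the study, where spots and not cultures were the unit (1.05, adjusted p = 0.0125).

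**Figure D4:**
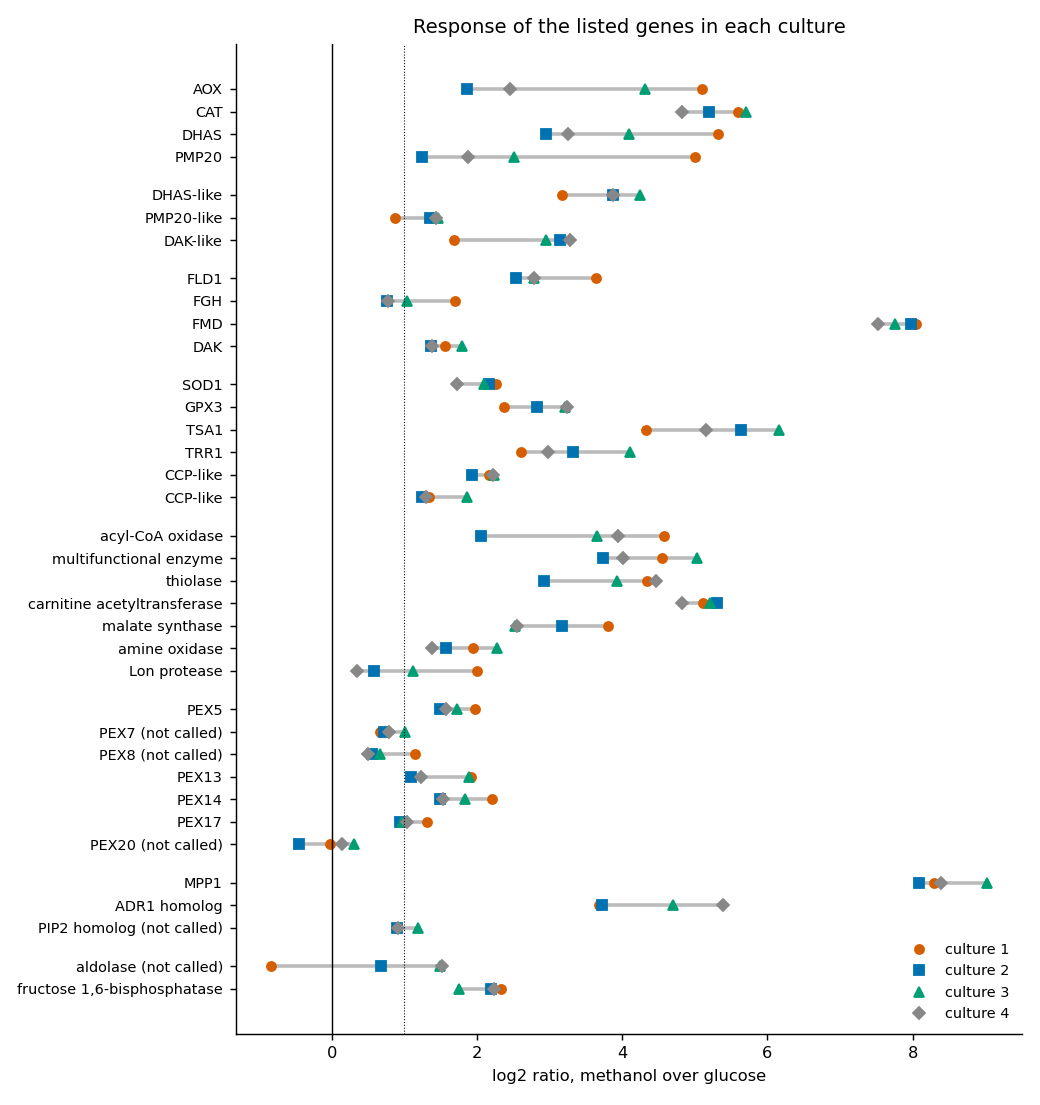
Log2 ratio of methanol over glucose in each culture for all listed genes (x axis), grouped from the top as the 4 peroxisomal genes, similar genes, methanol route outside the peroxisome, peroxide and thiol defence, other peroxisomal enzymes, matrix import, regulators and bisphosphate steps. Grey lines span the 4 cultures and the dotted line marks a 2-fold rise. AOX, DHAS and PMP20 span wider ranges than most listed genes, while CAT spans 4.83 to 5.71.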

How the data were processed

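The 8 deposited array files come from Agilent Feature Extraction 9.5. Their processed signal, an intensity, was spatially detrended and dye-normalized by the authors, who did not subtract local background. The deposited files also give log10 ratios of red over green and flags for saturation, outliers and signal above background. The authors also deposited 1 table of the 8 arrays as log10 ratios in the direction methanol over glucose. Its values stand 5 positions away from their identifiers, and after this shift the largest difference from the Feature Extraction ratios was 0. It served as an alternative.

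For each spot, log2 of methanol over glucose was computed here from the processed signals, with outlier spots left out and saturated spots kept. Spots were averaged per array and dye-swapped arrays per culture, which leaves 1 value per culture (n = 4). Levels are the geometric mean signals, and no level of a probe was set against that of another probe. Ratios were fitted with an intercept in limma 3.58.1 (R 4.3.3) with empirical Bayes moderation (2.81 prior degrees of freedom) and Benjamini-Hochberg adjustment over 5999 genes. A call required that the fold exceeded 2 or was under 0.5, that the adjusted p was under 0.05 and that the A-value reached 6, which it did not for 521 genes. Pairs of genes were compared with an exact sign-flip test over cultures. Tables and figures were made with Python 3.11.15, pandas 2.3.3, numpy 2.4.6 and matplotlib 3.10.9.

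The pairing of a glucose with a methanol sample comes from the labels, which give both the number of the same culture. Their departures from the mean of their condition correlated across genes with r between 0.247 and 0.453. Both channels share arrays, so this value does not decide the pairing.

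The named genes are the 4 genes, the listed genes and, for each of the 4, the 3 genes with the nearest pattern. The genes and lists were chosen with earlier results of these data known. Gene names and best matches are those of the study's annotation. Alternatives were other background and dye normalizations, either dye orientation, a dye term with culture as random block, the slide row as block, other A-value and background limits, all spots or none saturated, trend and robust moderation, treat, Cyber-T over 16 spots, no replicate block, other scalings of the levels and each culture left out. The authors' columns of fold changes and p-values in the supplement were not used. The number of cultures (n = 4) limits the precision.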

Additional observations from a re-analysis of the deposited data

Results flagged for a closer look

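In 45 groups of 4 cultures (the log2 ratios of all listed genes and the levels of the 4 peroxisomal genes in either condition) it was tested whether 1 culture lay apart from the others by Dixon's criterion. Chance alone would mark about 1 in 20 such groups, and 2 of the 45 were marked. The log2 ratio of the cytochrome c peroxidase-like gene Hp47g69 was 1.86 in culture 3 and between 1.25 and 1.33 in the others, a gap of 0.857 of the whole range. The log2 ratio of the PIP2 homolog Hp24g760 was 1.19 in culture 3 and between 0.88 and 0.91 in the others, a gap of 0.900 of the range. None of the values of AOX, CAT, DHAS and PMP20 was marked, also not those of culture 1.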

How the results depend on the processing

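Each of AOX, CAT and DHAS kept its direction and its call under the 25 alternatives run, and PMP20 under 24 of them. PMP20 was not called by treat, where its log2 ratio stayed 2.66 and its adjusted p was 0.0575. Some of the alternatives could not change these calls. No spot of the 4 genes was saturated or an outlier, all were well above background, and the lowest A-value was 11.0. Other spot, A-value and background limits therefore left the log2 ratios as they were. The deposited table repeats the Feature Extraction ratios, and the unadjusted p could only loosen a call. Over the fits that each lacked 1 culture, the log2 ratio was between 2.88 and 3.96 for AOX, 5.21 and 5.50 for CAT, 3.43 and 4.23 for DHAS and 1.88 and 3.13 for PMP20, with adjusted p of at most 0.0277. Without the replicate block, where levels were compared between conditions after centring each channel on its median (a scaling added after seeing the data), the log2 ratios were 3.48, 5.37, 3.95 and 2.70 in the same order and the calls did not change. By treat 760 genes were called upregulated, against 1145, and leaving out each culture gave 1108 to 1170.

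The difference of DHAS minus DHAS-like, 0.11, turned to -0.0162 with glucose in Cy5 and lay between -0.57 and 0.46 with each culture left out. The excess of the SD on methanol over that on glucose kept its sign for the 4 genes under every scaling, orientation and left-out culture, and was smallest for CAT without scaling (0.04). PEX20 turned from -0.00464 to 0.0678 with glucose in Cy5, to 0.0255 for the arithmetic mean of the spots and for both forms of Cyber-T and to 0.0379 without the replicate block, and lay between -0.11 and 0.15 with each culture left out. The cause of these changes was not tested.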
